A study of Mus musculus with 8 samples.

Results

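The genes described here are 42 genes of fatty acid oxidation and peroxisomes, chosen by name from the 55367 genes of a count matrix of mouse whole kidneys: enzymes of mitochondrial and peroxisomal beta-oxidation, acyl-CoA thioesterases, peroxins, catalase and *Hao2*, and 2 enzymes of ketone metabolism. Their levels were compared between 4 mice labelled Maf conditional KO (*c-Maf* ΔTAM, that is *c-Maf* fl/fl with the CAG-Cre-ER TM transgene) and 4 mice labelled Maf flox/flox (*c-Maf* fl/fl without Cre). All 8 mice were C57BL/6J, 8 weeks old by their labels, carried floxed *c-Maf* and, by the study's methods, received tamoxifen (TAM). The study's text ties the comparison to TAM(10d). CAG is a promoter active in most tissues, so the driver is not specific to the kidney or to one of its cell types, and Cre was carried by the deleted genotype alone. Each library was made from RNA of a whole kidney and each mouse was 1 replicate. Litters are not given in the sources used here.

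Fatty acids enter mitochondria as acylcarnitines and are shortened there by repeated rounds of dehydrogenation, hydration, a second dehydrogenation and thiolysis, with the electrons passed on through electron transfer flavoprotein. Peroxisomes shorten very long and branched acids by a parallel set of enzymes, and peroxins build the organelle and import its proteins. Proximal tubule cells are known to rely on this oxidation for energy, and PPARα is a known activator of many of these genes.

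The reads assigned to genes totaled 16649129 to 22990257 counts per mouse, of which the 42 genes took between 0.528% and 0.742%, and the lowest count of any of them in a mouse was 237. Levels are given as CPM, that is, counts after edgeR's TMM scaling of the libraries. All 42 genes were among the 20149 that passed edgeR's filter on low counts. *Maf* itself was at 9.06, 34.5, 29.6 and 10.1 CPM in conditional KO mice 1 to 4, and at 379.9, 342.2, 305.4 and 351.1 CPM in flox/flox mice 1 to 4, so its level went with the label in all 8 mice. *Xist*, the transcript of the inactive X chromosome in females, had 2, 6 and 22 counts in conditional KO mouse 1 and flox/flox mice 3 and 4, where Y-linked genes were detected, and 17618 to 22387 counts in the other 5 mice. The labels give no sex, so mice with more than 1000 *Xist* counts are called high *Xist* and the others low *Xist*, and each main count is also given with this class in the model. Conditional KO mouse 1, the only deleted mouse with low *Xist*, stood apart from its group: 32.3% of its counts were mitochondrial against 18.7% to 22.1% in the other 3.

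Across the whole list, 5 genes fell and 1 rose in conditional KO mice in edgeR's quasi-likelihood test at an adjusted *P* under 0.05. The falls were in *Cpt2*, *Acaa2*, *Acaa1a*, *Etfb* and *Ehhadh*, which act in carnitine-dependent entry, in thiolysis in both organelles, in electron transfer and in peroxisomal hydration, and the rise was in *Acox2*, a peroxisomal oxidase of branched acyl-CoAs. Among all genes tested, 1.58% fell and 0.586% rose by the same rule, 2.16% in both directions together. DESeq2 called 7 lower and 1 higher of the 42 genes, adding *Acadvl* and *Pex11a*, where it called 2.81% of all genes lower and 1.58% higher. The exact test of edgeR called 6 and 1, adding *Pex11a*, where it called 2.11% and 1.27% of all genes. Of the 42 genes, 30 had a log2 fold change below zero (71.4%, against 49.5% of all genes tested), and the median was -0.16 against 0.00 for all genes. Under 3 other scalings 29 or 30 were below zero. At an unadjusted *P* under 0.05, 15 genes were lower and 1 was higher, where the shares over all genes were 7.44% and 6.58%. In 14 genes all 4 conditional KO mice lay below all 4 flox/flox mice, and in 1 gene they lay above, where 5.62% and 4.17% of all genes did so.

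In whole kidney, fewer cells of a type and less RNA per cell cannot be told apart. Of 12 proximal tubule markers, none of them at 0, 3 were lower (*Slc34a1*, *Dab2* and *Gatm*, past the threshold in 8, 2 and 3 of the 8 fits that each left out 1 mouse), their median log2 fold change was -0.16, and their summed level was 13224 to 16438 CPM in conditional KO mice and 17060 to 19809 CPM in flox/flox mice. With *Xist* class in edgeR's model, 5 of the 12 were lower and 3 were higher at an unadjusted *P* under 0.05, where 11.2% and 9.77% of all genes passed. The sum was lower in all conditional KO mice than in all flox/flox mice, and its part in the differences of the 42 genes was not tested.

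The count of lower genes fell whichever mouse was left out, and so did the share over all genes. Without conditional KO mouse 2, without conditional KO mouse 3 or without flox/flox mouse 3, *Cpt2* alone stayed past the threshold. Without conditional KO mouse 1, 3 genes did (*Cpt2*, *Acaa2* and *Acaa1a*), without flox/flox mouse 1 or 2 likewise 3 (*Cpt2*, *Etfb* and *Ehhadh*), and 4 passed without conditional KO mouse 4 (*Cpt2*, *Acaa2*, *Acaa1a* and *Pex11a*) or without flox/flox mouse 4 (*Cpt2*, *Acaa2*, *Etfb* and *Acaa1a*). *Acox2* passed in 2 of the 8 fits, those without conditional KO mouse 1 and without flox/flox mouse 4. The direction of all 6 genes was the same in the 8 fits, in which 0.913% to 1.51% of all genes were lower and 0.248% to 0.691% higher.

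**Figure D1:**
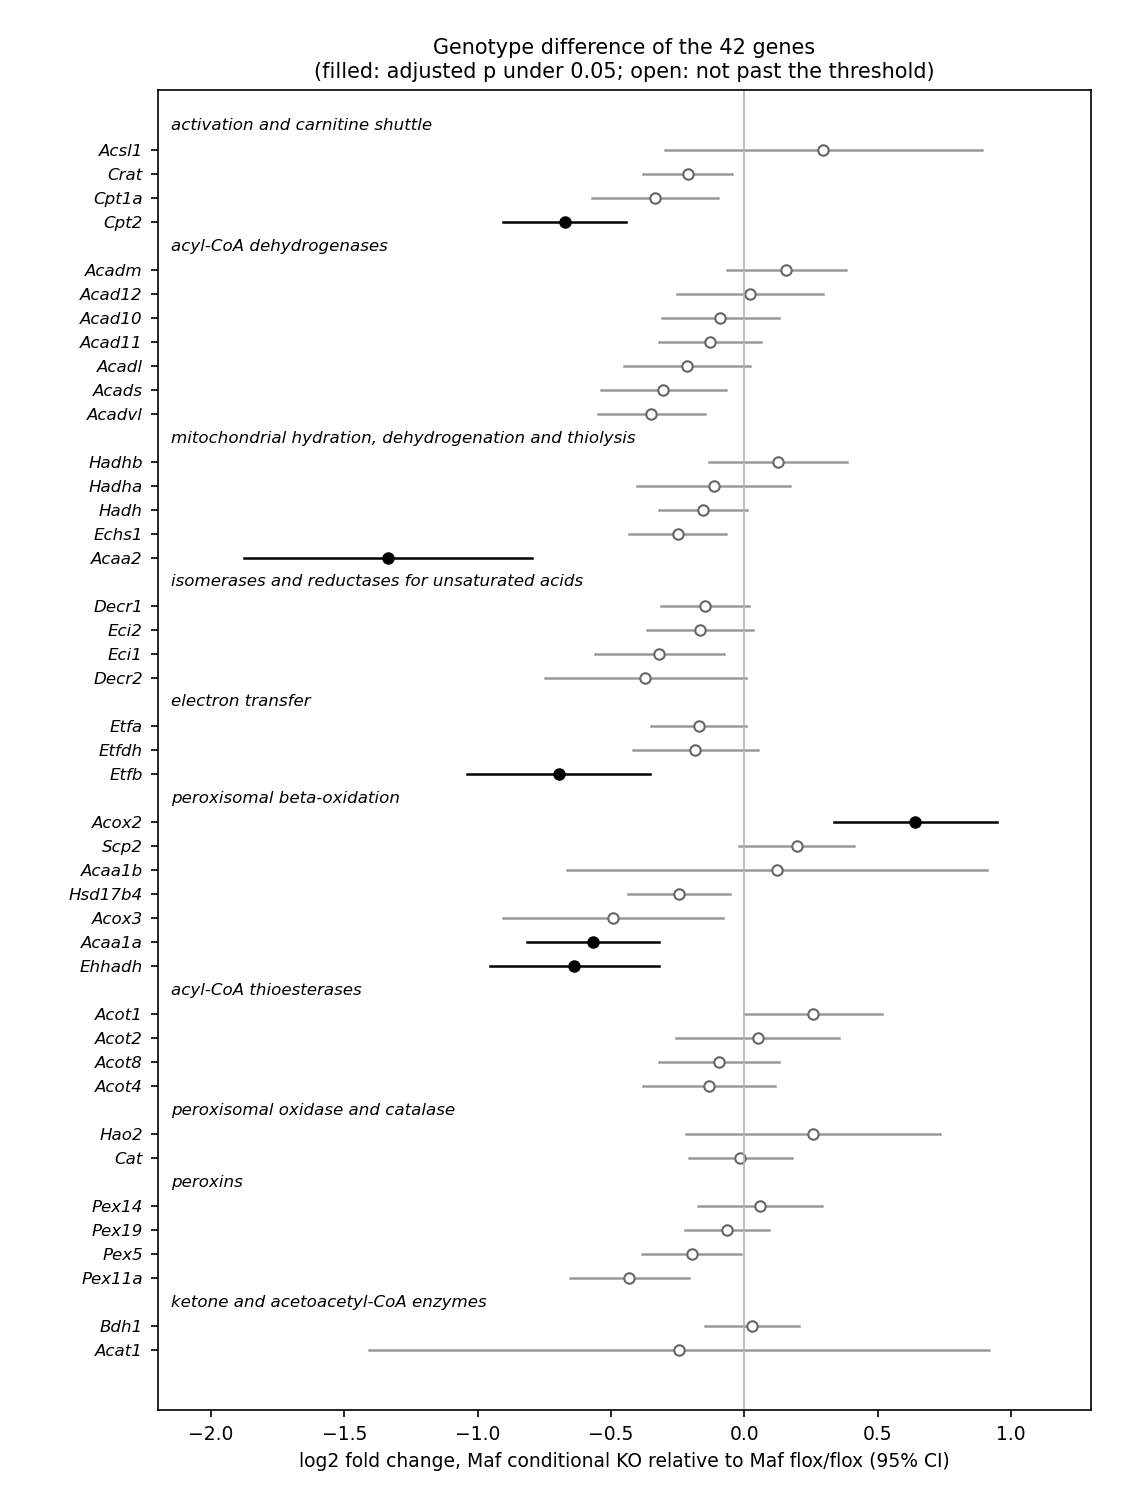
Log2 fold change of each of the 42 genes, Maf conditional KO relative to Maf flox/flox mice, from edgeR's quasi-likelihood fit with its 95% confidence interval (n = 4 mice each), grouped by role. The 6 filled points passed the adjusted *P* threshold: 5 to the left of zero, from -1.33 (*Acaa2*) to -0.57 (*Acaa1a*), and *Acox2* at 0.64 to the right, while 30 of the 42 points lie left of zero.

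With *Xist* class as a term beside genotype, 11 genes were lower in conditional KO mice and 0 were higher, where 4.49% and 2.98% of all genes passed in each direction. The 11 were the same 5 genes with *Cpt1a*, *Acadvl*, *Echs1*, *Eci1*, *Decr2* and *Pex11a*. At an unadjusted *P* under 0.05 the edgeR model with the term gave 20 lower and 2 higher of the 42, where 11.2% and 9.77% of all genes passed. *Acox2* had in it a log2 difference of 0.63 with an adjusted *P* of 0.0538. In the 5 mice with high *Xist* (3 conditional KO and 2 flox/flox), 6 genes were lower (2.22% of all genes), namely the same 5 with *Decr2*, and 2 were higher (1.53% of all genes), *Acox2* and *Acot1*.

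Among the genes that bring fatty acids into mitochondria, *Cpt2* fell. It encodes the inner-membrane enzyme that moves the acyl group from carnitine back to CoA, and lies on chromosome 4 from 107903981 to 107923610 (minus strand, GRCm38). Its levels were 77.1, 81.4, 87.2 and 107 CPM in conditional KO mice 1 to 4 and 134, 134, 148 and 146 CPM in flox/flox mice 1 to 4. The genotypes did not overlap, and the lowest flox/flox mouse was above the highest conditional KO mouse in each *Xist* class. The mean went from 140.6 ± 7.37 to 88.2 ± 13.3 CPM (SD, n = 4 each), a log2 fold change of -0.67 (standard error 0.106, adjusted *P* = 0.00595) that stayed between -0.78 and -0.61 in the 8 fits. *Cpt2* was the single gene of the 42 past the threshold in all 8 fits that each left out 1 mouse.

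The other 3 entry genes did not pass the threshold without the *Xist* term. *Cpt1a*, the outer-membrane carnitine acyltransferase that malonyl-CoA inhibits, was at 455, 391, 339 and 470.4 CPM in conditional KO mice and at 542, 507, 515 and 524 CPM in flox/flox mice. Again the genotypes did not overlap, with a log2 fold change of -0.34 (standard error 0.108, adjusted *P* = 0.170), and with the *Xist* term it was -0.32 (adjusted *P* = 0.047). *Crat*, which makes acetylcarnitine, had a fold change of -0.21 on the log2 scale without overlap (adjusted *P* = 0.225). *Acsl1*, which activates long-chain acids to acyl-CoA, had a value of 0.29 with a wide interval (-0.30 to 0.89), and conditional KO mouse 1 (234 CPM) was below all other mice while the other 3 (494 to 558 CPM) were above all flox/flox mice (297 to 429 CPM).

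None of the 7 acyl-CoA dehydrogenases, which open each round of mitochondrial oxidation for acids of different lengths, passed the quasi-likelihood threshold, 2 were lower at an unadjusted *P* under 0.05, and DESeq2 called 1. That gene, and the nearest to the threshold, was *Acadvl*, the very-long-chain enzyme, at 87.3, 102.8, 102.2 and 112 CPM in conditional KO mice and 130.0, 127, 138 and 119.9 CPM in flox/flox mice. The genotypes did not overlap, the log2 difference being -0.35 (standard error 0.0919, adjusted *P* = 0.0822), and with the *Xist* term -0.38 (adjusted *P* = 0.00684). Exons of *Dvl2* cover 42.9% of its exonic bases, where reads were not counted. *Acads*, the short-chain enzyme, was at 112, 109, 102.2 and 115 CPM against 121, 116, 158 and 148 CPM, which did not overlap, with a log2 fold change of -0.30 (adjusted *P* = 0.215). The remaining 5, *Acadl*, *Acadm*, *Acad10*, *Acad11* and *Acad12*, lay between -0.22 and 0.16 on the log2 scale with overlapping genotypes.

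Of the 5 genes for the later mitochondrial steps, *Acaa2* fell and had the largest change of the 42. It encodes the thiolase that releases acetyl-CoA, and lies on chromosome 18 from 74779197 to 74806208 (plus strand). Its levels were 43.5, 81.9, 87.9 and 93.9 CPM in conditional KO mice and 235, 204, 182 and 155 CPM in flox/flox mice. In both genotypes the mice with low *Xist* (conditional KO mouse 1, flox/flox mice 3 and 4) were the lowest, and the genotypes did not overlap. The mean went from 193.7 ± 34.0 to 76.8 ± 22.8 CPM (SD, n = 4 each), a log2 fold change of -1.33 (standard error 0.237, adjusted *P* = 0.0258). In the 8 fits it lay between -1.45 and -1.14 and passed in 3 of them, with the *Xist* term it was -1.53 (adjusted *P* = 1.2e-05), and in mice with high *Xist* -1.32 (adjusted *P* = 5.7e-07). With quantile normalization it missed the threshold (adjusted *P* = 0.0525).

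*Echs1*, the mitochondrial enoyl-CoA hydratase, was at 112, 132, 127 and 122 CPM in conditional KO mice and 136, 154, 145 and 152 CPM in flox/flox mice. The genotypes did not overlap, with a log2 fold change of -0.25 (standard error 0.0835, adjusted *P* = 0.189), and with the *Xist* term -0.27 (adjusted *P* = 0.0416). *Hadh*, the medium and short-chain dehydrogenase, did not overlap either (-0.15, adjusted *P* = 0.397). The subunits of the trifunctional protein, *Hadha* (-0.12) and *Hadhb* (0.13), overlapped between genotypes, and 22.3% of the 36-base stretches of *Hadhb* also occur in other genes, mostly in *Gm13910*.

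Of the 4 isomerases and reductases for unsaturated acids, 0 passed edgeR's quasi-likelihood test without the *Xist* term or DESeq2, 1 was lower at an unadjusted *P* under 0.05, and all 4 had values below zero. *Eci1*, a mitochondrial enoyl-CoA isomerase, was at 35.5, 49.7, 51.1 and 48.7 CPM in conditional KO mice and 60.8, 55.0, 59.0 and 55.9 CPM in flox/flox mice, without overlap (log2 fold change -0.32, standard error 0.111, adjusted *P* = 0.208). *Decr2*, the peroxisomal dienoyl-CoA reductase, was at 33.6, 44.2, 40.7 and 49.8 CPM against 67.3, 63.2, 44.8 and 42.2 CPM. Its genotypes overlapped, with flox/flox mice 3 and 4 at the level of conditional KO mice 2 to 4. Its log2 fold change was -0.37 (adjusted *P* = 0.366) without the *Xist* term and -0.48 (adjusted *P* = 0.00147) with it. *Eci2* and *Decr1* were at -0.17 and -0.15.

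Electron transfer flavoprotein takes electrons from the dehydrogenases. *Etfb*, its beta subunit on chromosome 7 from 43444083 to 43457800 (plus strand), was at 25.4, 26.0, 26.4 and 23.4 CPM in conditional KO mice and 34.4, 33.1, 39.7 and 57.1 CPM in flox/flox mice. The conditional KO mice lay within 3 CPM of one another, and flox/flox mouse 4 was well above the rest of its group. *Etfb* fell from 41.1 ± 11.03 to 25.3 ± 1.31 CPM (SD, n = 4 each), a log2 fold change of -0.70 (standard error 0.156, adjusted *P* = 0.0453), and passed in 3 of the 8 fits. In mice with high *Xist* its log2 fold change was smaller, -0.42 (adjusted *P* = 0.0382). *Etfb* missed the threshold with upper-quartile factors (adjusted *P* = 0.0519) and with quantile normalization (adjusted *P* = 0.0510). Exons of another annotated gene, *Etfbl*, cover 58.2% of its exonic bases, and 48.5% of its 36-base stretches occur in other genes, so its level is uncertain. *Etfa*, the alpha subunit, was at 62.6, 64.9, 58.2 and 59.8 CPM against 62.6, 67.9, 74.0 and 72.1 CPM, which overlapped (-0.17, adjusted *P* = 0.371). *Etfdh*, which hands the electrons to ubiquinone, was at -0.18 on the log2 scale (adjusted *P* = 0.490).

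The 7 genes of peroxisomal beta-oxidation held 2 falls and the 1 rise. *Ehhadh*, the bifunctional hydratase and dehydrogenase, lies on chromosome 16 from 21761287 to 21787807 (minus strand). Its levels were 439.6, 379.8, 393 and 429 CPM in conditional KO mice and 519.9, 507, 764 and 763 CPM in flox/flox mice. All conditional KO mice were below all flox/flox mice, and flox/flox mice 3 and 4, with low *Xist*, were far above mice 1 and 2. The mean went from 639 ± 145 to 410.3 ± 28.7 CPM (SD, n = 4 each), a log2 fold change of -0.64 (standard error 0.145, adjusted *P* = 0.0453) that passed in 2 of the 8 fits and missed with upper-quartile factors (adjusted *P* = 0.0582). Within mice with high *Xist* it was smaller, -0.36 (adjusted *P* = 0.0285).

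*Acaa1a*, a peroxisomal thiolase on chromosome 9 from 119339676 to 119350299 (plus strand), was at 44.8, 58.9, 60.3 and 66.8 CPM in conditional KO mice and at 88.6, 90.7, 83.4 and 79.3 CPM in flox/flox mice. The genotypes were apart, with conditional KO mouse 1 lowest. *Acaa1a* fell from 85.5 ± 5.17 to 57.7 ± 9.26 CPM (SD, n = 4 each), by 0.57 on the log2 scale (standard error 0.113, adjusted *P* = 0.0232), past the threshold in 3 of the 8 fits. *Acaa1b*, its paralog, was at 59.6, 142, 163 and 195 CPM against 145, 144, 121 and 103 CPM, with a log2 fold change of 0.12 and an interval from -0.67 to 0.91, and its sign turned with the *Xist* term (-0.17) and without conditional KO mouse 4 (-0.08). Conditional KO mouse 1 was lowest of all mice there while conditional KO mouse 4 was highest. The paralogs share sequence, with 21.4% of the 36-base stretches of *Acaa1a* and 47.0% of those of *Acaa1b* found in other genes, and reads that map to several places were not counted, so the balance between them is uncertain.

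*Acox2*, the oxidase that opens the rounds on branched acids and bile acid precursors, lies on chromosome 14 from 8225511 to 8259353 (minus strand). It was at 104, 143, 158 and 126 CPM in conditional KO mice and at 69.8, 84.3, 85.2 and 101.5 CPM in flox/flox mice. The genotypes came within 3 CPM of each other, between conditional KO mouse 1 and flox/flox mouse 4, both with low *Xist*. The gene rose from 85.2 ± 12.9 to 133 ± 22.99 CPM (SD, n = 4 each), a log2 fold change of 0.64 (standard error 0.140, adjusted *P* = 0.0387), and in mice with high *Xist* the value was 0.88 (adjusted *P* = 0.000266). In low *Xist* the log2 ratio of conditional KO mouse 1 to the flox/flox mean was only 0.16. *Acox3*, another oxidase of branched acids, had a log2 fold change of -0.49 with overlapping genotypes (adjusted *P* = 0.265). *Hsd17b4*, the other bifunctional enzyme, was at -0.25 (adjusted *P* = 0.218), and *Scp2*, a sterol carrier and thiolase, at 0.20 (adjusted *P* = 0.416).

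**Figure D2:**
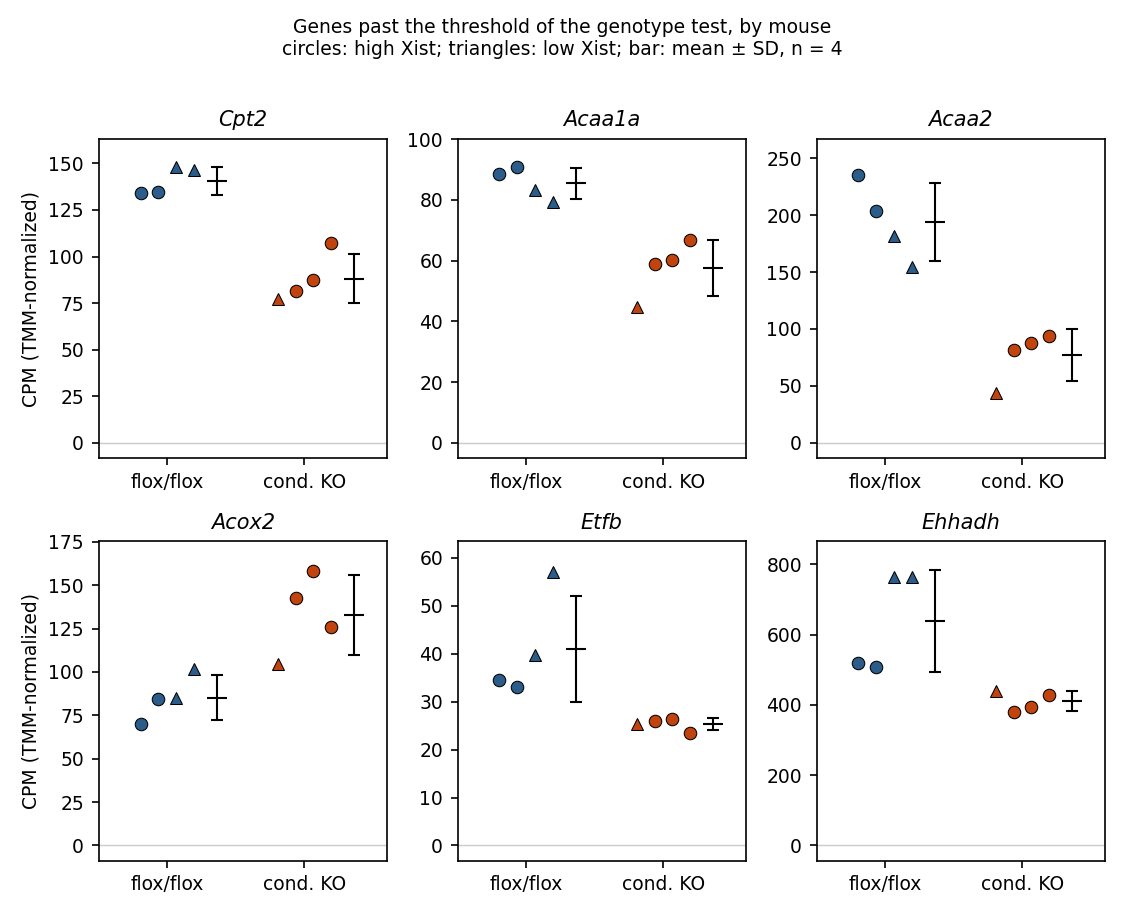
TMM-normalized CPM of the 6 genes past the adjusted *P* threshold in each mouse, with flox/flox at the left and conditional KO (cond. KO) at the right of each panel, circles for high *Xist*, triangles for low *Xist*, and a bar for the mean ± SD (n = 4). In every panel the genotypes are apart, most narrowly for *Acox2* (101.5 against 104 CPM), and the low-*Xist* flox/flox mice lead *Ehhadh* at 763 and 764 CPM.

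The bases before the starts of these genes were searched for short motifs. RefSeq gave a start in GRCm38.p6 for 36 of the 42 genes and for 5 of the 6 that changed. The 250 bases before the start of 4 of the 5 genes that fell are shown here because those genes were lower in conditional KO mice, written 5′ to 3′ along the gene's own strand. Capitals mark GGGCGG (the GC box) and TGCTGA (part of the site that Maf proteins bind) on either strand.
Cpt2: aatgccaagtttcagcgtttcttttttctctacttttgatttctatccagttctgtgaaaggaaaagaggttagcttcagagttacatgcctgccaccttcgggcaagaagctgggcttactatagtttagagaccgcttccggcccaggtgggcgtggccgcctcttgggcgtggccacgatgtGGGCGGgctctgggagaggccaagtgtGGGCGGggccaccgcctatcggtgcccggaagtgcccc
Ehhadh: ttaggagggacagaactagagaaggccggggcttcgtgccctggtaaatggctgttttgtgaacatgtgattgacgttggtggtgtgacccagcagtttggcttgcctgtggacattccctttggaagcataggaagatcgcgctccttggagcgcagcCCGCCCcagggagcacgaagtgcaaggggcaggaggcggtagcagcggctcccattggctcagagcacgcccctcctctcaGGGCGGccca
Acaa1a: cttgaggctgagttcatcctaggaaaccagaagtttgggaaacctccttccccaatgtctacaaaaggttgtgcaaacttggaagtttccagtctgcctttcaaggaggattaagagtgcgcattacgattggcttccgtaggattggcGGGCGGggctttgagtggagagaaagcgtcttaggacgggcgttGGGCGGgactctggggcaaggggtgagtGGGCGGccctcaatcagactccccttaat
Etfb: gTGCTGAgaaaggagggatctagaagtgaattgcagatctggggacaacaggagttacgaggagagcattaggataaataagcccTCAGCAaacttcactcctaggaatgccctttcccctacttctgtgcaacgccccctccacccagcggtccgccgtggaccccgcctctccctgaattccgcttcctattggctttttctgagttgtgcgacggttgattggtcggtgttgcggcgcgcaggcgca

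These windows are chr4:107923590-107923839 (minus strand) for *Cpt2*, chr16:21787835-21788084 (minus strand) for *Ehhadh*, chr9:119341044-119341293 (plus strand) for *Acaa1a* and chr7:43443822-43444071 (plus strand) for *Etfb*. *Cpt2* held 2 GC boxes, *Ehhadh* 2, *Acaa1a* 3 and *Etfb* 0. The RefSeq starts of *Cpt2* and *Acaa1a* lie inside the spans that the counted annotation gives these genes, so that their windows lie in part or in whole within them. *Etfb* held TGCTGA 2 times and the other 3 windows did not hold it. The windows of *Acox2*, which rose, are not shown and held 0 GC boxes and 0 copies of TGCTGA. Over the 36 genes, 22 windows held GGGCGG (61.1%, against 59.5% of the tested genes and 35.4% of all genes with such a window), and 6 held TGCTGA (16.7%, against 15.7% and 18.0%). CCAAT stood in 18 (50.0%, against 39.7% and 37.5%). A repeat of AGGTCA with 1 base between the copies, the pattern of receptors of the PPAR kind, stood in 0 of the 36 and in 0.0407% of all windows, and the looser repeat of AGGNCA, which includes it, in 0 of the 36 and 0.4% of all. A match is only a run of letters, and its absence says nothing about binding outside the window.

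Of the 4 acyl-CoA thioesterases, 0 passed the threshold in edgeR's quasi-likelihood test, in the exact test or in DESeq2, and 0 were at an unadjusted *P* under 0.05. These enzymes release free acids from CoA, *Acot1* in the cytosol, *Acot2* in mitochondria and *Acot4* and *Acot8* in peroxisomes. *Acot1* was at 53.0, 62.1, 73.5 and 73.0 CPM in conditional KO mice and 52.6, 48.2, 63.0 and 55.2 CPM in flox/flox mice. Its log2 fold change was 0.26 (adjusted *P* = 0.363), and among mice with high *Xist*, where the 3 conditional KO mice were all above both flox/flox mice, 0.46 (adjusted *P* = 0.0130). *Acot4* was at 56.5, 58.4, 66.3 and 64.0 CPM against 73.5, 78.8, 56.2 and 60.1 CPM, which overlapped (-0.13, adjusted *P* = 0.667). *Acot2* and *Acot8* were at 0.05 and -0.10 on the log2 scale, the former at -0.04 with the *Xist* term, and *Acot1* and *Acot2* share 15.7% and 28.2% of their 36-base stretches with each other.

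The peroxisomal oxidase *Hao2*, which acts on hydroxy acids, and catalase, which breaks down hydrogen peroxide, did not pass either. *Hao2* was at 286, 474, 414 and 374 CPM in conditional KO mice and 378, 424, 246 and 247 CPM in flox/flox mice, and the lowest values in each genotype were those of mice with low *Xist* (log2 fold change 0.26, adjusted *P* = 0.655). *Cat* was at 582, 644, 585 and 563 CPM against 551, 594, 608 and 645 CPM. The values overlapped fully, and its log2 fold change was -0.02 with an interval from -0.21 to 0.18, but above zero with upper-quartile factors (0.0293) or quantile normalization (0.10).

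Of the 4 peroxins, *Pex11a*, which promotes peroxisome division, was just outside the threshold. It was at 31.1, 27.3, 26.3 and 33.4 CPM in conditional KO mice and 38.0, 36.3, 41.9 and 43.0 CPM in flox/flox mice. The genotypes did not overlap, the log2 difference was -0.43 (standard error 0.102, adjusted *P* = 0.0532), and with the *Xist* term it was -0.39 (adjusted *P* = 0.0137). *Pex5*, the receptor that carries enzymes into the peroxisome, was at 58.1, 72.0, 60.3 and 66.6 CPM against 73.0, 72.8, 71.6 and 77.3 CPM, with overlap only at conditional KO mouse 2 (-0.20, adjusted *P* = 0.326). *Pex14*, its docking partner, was at 0.06 and *Pex19*, which brings membrane proteins, at -0.07, and exons of *Gm17029* cover 28.3% of the exonic bases of *Pex14*.

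The 2 ketone enzymes did not differ by genotype beyond the spread. *Bdh1*, the hydroxybutyrate dehydrogenase, was at 114, 112, 124 and 116 CPM in conditional KO mice and 105, 124, 117 and 112 CPM in flox/flox mice (log2 fold change 0.03, interval -0.15 to 0.20). *Acat1*, the acetoacetyl-CoA thiolase, was at 685, 259, 246 and 226 CPM against 258, 269, 565 and 586 CPM. Each genotype held both low and high values, and the high ones belonged to the 3 mice with low *Xist*. Its genotype value was -0.25 with an interval from -1.41 to 0.92, -0.78 without conditional KO mouse 1, -0.04 without flox/flox mouse 4, and 0.02 with the *Xist* term (adjusted *P* = 0.927).

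Per kilobase of annotated exon, a rough scale for comparing genes, the mean in flox/flox mice was highest for *Cat* (229 CPM per kb), *Ehhadh* (214), *Hao2* (158), *Acaa2* (128) and *Acadm* (128). It was lowest for *Hadhb* (2.65), *Pex14* (4.13) and *Acad12* (4.88). *Acaa2* and *Acadm* had the same mean there, while in conditional KO mice *Acaa2* was at 50.7 and *Acadm* at 142 CPM per kb. The flox/flox means pool the *Xist* classes, between which genes differed: *Acaa2* was at 219 CPM in high and 168 CPM in low *Xist*, and *Ehhadh* at 513 and 764 CPM. *Ehhadh* was at 138 CPM per kb in conditional KO mice and *Cat* at 227. The order of *Cat* and *Ehhadh* in flox/flox mice lies within the spread of *Ehhadh* (SD 145 of a mean of 639 CPM). Bases shared with other genes are part of the length, so genes such as *Etfb*, *Acadvl* and *Pex14* are understated on this scale. *Hadhb* also has 22.3% of its 36-base stretches in other genes, where reads were not counted. The length takes in all annotated exons of a gene, whether expressed or not, so the order of genes is uncertain.

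Mice of the same genotype differed with *Xist* class in 13 of the 42 genes. In the model with both terms, 8 genes were higher in mice with high *Xist* (5.63% of all genes were) and 5 were lower (6.59% of all genes were). The 8 were *Hao2*, *Decr2*, *Hadha*, *Acsl1*, *Acaa2*, *Acot2*, *Acot4* and *Acaa1a*, and the 5 were *Acat1*, *Acox3*, *Ehhadh*, *Etfdh* and *Acadl*. In the flox/flox mice alone (2 of each class), 7 were higher and 5 lower in high *Xist*, where 3.02% and 4.47% of all genes were.

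*Acat1* had the smallest *P* of the term and was lower in high *Xist*, by -1.29 on the log2 scale (standard error 0.0827, adjusted *P* = 2.6e-08), or 2.44-fold higher in low *Xist*. The 3 mice with low *Xist* lay between 565 and 685 CPM and the other 5 between 226 and 269 CPM, with no overlap in either genotype. *Hao2* went the other way (0.64, standard error 0.0870, adjusted *P* = 0.000114), with 246 to 286 CPM in low *Xist* and 374 to 474 CPM in high *Xist*. *Decr2* (0.51, adjusted *P* = 0.000873) and *Hadha* (0.38, adjusted *P* = 0.00269) were also higher in high *Xist*. For *Hadha* the levels were 176, 234, 242 and 243 CPM in conditional KO mice and 278, 263, 229 and 199 CPM in flox/flox mice, so that the lowest values were those of conditional KO mouse 1 and flox/flox mouse 4.

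*Acox3* was lower in high *Xist* (-0.52, standard error 0.0996, adjusted *P* = 0.00278). It was at 131, 115, 115 and 112 CPM in conditional KO mice and 117, 132, 214 and 202 CPM in flox/flox mice, so the low-*Xist* mice were far above the rest in flox/flox alone. The class difference of *Ehhadh* (-0.39, adjusted *P* = 0.00939) likewise stood mostly between the flox/flox mice. A test of whether the genotype difference itself differed between *Xist* classes, added after the data had been seen and run with edgeR's quasi-likelihood test, called 0 of the 42 genes at the adjusted threshold where it called 0.194% of all genes, and 14 at an unadjusted *P* under 0.05, where 8.57% of all genes passed. The smallest adjusted values were those of *Acaa1b* and *Acsl1*, with log2 values (high minus low *Xist*) of 1.11 and 0.74. The genes under an unadjusted *P* of 0.05 included all those past the main genotype threshold. For these the values were 0.72 (*Acox2*), 0.64 (*Acaa2*), 0.51 (*Etfb*), 0.44 (*Ehhadh*), 0.38 (*Cpt2*) and 0.33 (*Acaa1a*). Their falls were smaller, and the rise of *Acox2* larger, in high *Xist*. The low class held a single conditional KO mouse. The model with both terms takes the genotype difference as equal in both classes.

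**Figure D3:**
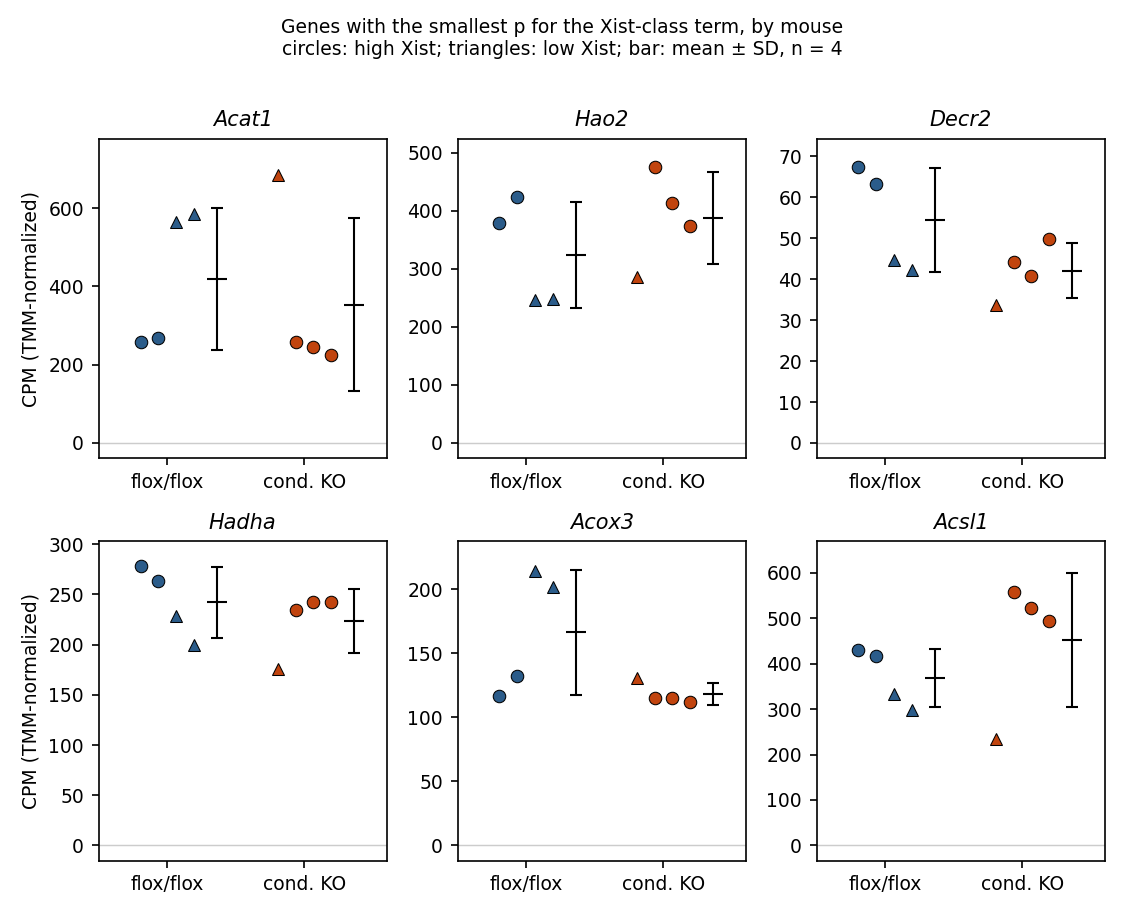
TMM-normalized CPM of the 6 genes with the smallest *P* for the *Xist*-class term in each mouse, drawn as in the plot of genes past the genotype threshold (circles high *Xist*, triangles low *Xist*, bar mean ± SD, n = 4). Triangles stand above all circles for *Acat1* (565 to 685 against 226 to 269 CPM) and below all circles for *Hao2* (246 to 286 against 374 to 474 CPM).

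**Figure D4:**
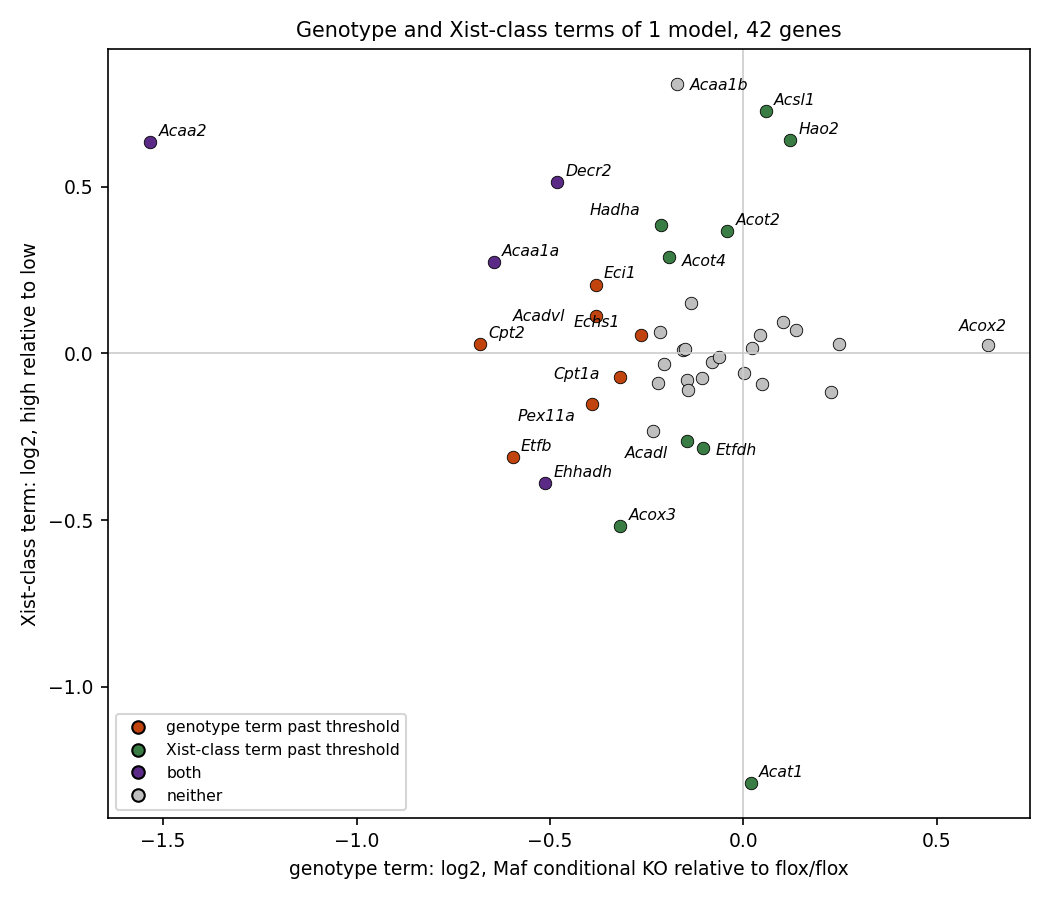
Genotype term (horizontal, log2, conditional KO relative to flox/flox) against *Xist*-class term (vertical, log2, high relative to low) for the 42 genes in 1 edgeR model (n = 8 mice), with colors for the terms past an adjusted *P* of 0.05. The 11 genes past the genotype threshold all lie left of zero, with *Acaa2* farthest at -1.53, and the 13 past the class threshold lie on both sides of zero, with *Acat1* lowest at -1.29.

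Other genes of the same pathways were read from 5 lists with 111 genes, of which 104 were tested, and *Acot3* and *Cpt1b* stand on 2 lists and are counted in both. At the adjusted threshold 8 were lower and 1 was higher in conditional KO mice, against 1.58% and 0.586% of all genes, and the median log2 fold change was -0.05. With the *Xist* term 17 were lower and 12 were higher, against 4.49% and 2.98% of all genes, and in mice with high *Xist* 10 and 12, against 2.22% and 1.53%. Among 16 tested regulators 2 fell, among 33 other peroxisomal enzymes and transporters 3 fell, among 18 PPAR targets outside the 42 genes 2 fell, and among 26 other mitochondrial genes 1 fell and 1 rose. Of the 18 PPAR targets 9 were below zero, and their median log2 fold change was 0.04. At an unadjusted *P* under 0.05, 2 of them were lower and 3 higher (7.44% and 6.58% of all genes). With the *Xist* term 2 of the 18 were lower and 3 higher at the adjusted threshold, and in mice with high *Xist* 3 and 5. Of 13 other peroxins 0 passed the quasi-likelihood test, and 1, *Pex10*, named after its value was seen, was lower at an unadjusted *P* under 0.05 (log2 fold change -0.36), as it was in DESeq2. *Hacl1*, a peroxisomal lyase of alpha-oxidation picked after its values were seen, was at 21.2, 53.5, 50.3 and 54.7 CPM in conditional KO mice and 20.7, 17.7, 10.8 and 9.38 CPM in flox/flox mice. It missed the threshold in edgeR's quasi-likelihood test without the *Xist* term (log2 fold change 1.62, adjusted *P* = 0.0964) and passed it with the term (1.33, adjusted *P* = 4.0e-07). It also passed in DESeq2 (adjusted *P* = 1.4e-05) and in edgeR's exact test (adjusted *P* = 0.000126).

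Among the regulators, *Ppara*, which encodes PPARα, was at 53.8, 73.0, 60.7 and 66.2 CPM in conditional KO mice and 116, 125, 109 and 99.9 CPM in flox/flox mice. The groups were well apart. *Ppara* fell to 56.4% of its flox/flox level (log2 fold change -0.83, standard error 0.107, adjusted *P* = 0.00147) and passed in all 8 fits that left out 1 mouse. *Creb3l3*, a transcription factor known from liver to act with PPARα, had 0, 2, 0 and 4 counts in conditional KO mice and 25, 25, 24 and 21 counts in flox/flox mice (adjusted *P* = 0.00656). With so few counts its fitted log2 fold change of -3.81 depends on the small count that the fit adds. *Ppargc1a*, a coactivator of mitochondrial genes, was at 120.0 to 136 CPM against 121 to 142 CPM (-0.09, interval -0.28 to 0.09). *Hnf4a*, a proximal tubule and liver transcription factor, was at 704 to 788 CPM against 740.4 to 951 CPM (-0.20, adjusted *P* = 0.386).

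Of the genes that supply or surround the pathway, *Slc22a5*, the plasma membrane carnitine transporter, was at 67.6, 72.4, 70.9 and 83.8 CPM in conditional KO mice and 206, 212, 209 and 188 CPM in flox/flox mice. It fell to 36.1% of the flox/flox level (log2 fold change -1.47, standard error 0.0907, adjusted *P* = 4.9e-06), and 33.9% of its 36-base stretches occur in other genes, mostly *Slc22a21*. *Idh1*, the cytosolic and peroxisomal isocitrate dehydrogenase that yields NADPH, was at 81.4, 117, 127 and 86.8 CPM against 301, 317, 294 and 329.9 CPM (-1.59, standard error 0.139, adjusted *P* = 9.5e-05). Both sets of values stood far apart, as did those of *Acss1*, a mitochondrial acetyl-CoA synthetase (74.8 to 164 against 231 to 321 CPM, -1.18, adjusted *P* = 0.0261). *Prdx5*, a peroxiredoxin (-0.72, adjusted *P* = 0.0191, with 19.1% of its exonic bases shared with *Trmt112*), *Abcd3*, a peroxisomal acyl-CoA transporter (-0.39, adjusted *P* = 0.0307), and *Vnn1*, a pantetheinase and PPARα target (-0.79, adjusted *P* = 0.0442), fell too. These 3 calls and that of *Acss1* did not hold in every fit with 1 mouse left out: of the 8 fits, *Prdx5* passed in 4, *Acss1* in 3, *Vnn1* in 2 and *Abcd3* in 1. *Slc22a5*, *Idh1* and *Creb3l3* passed in all 8, and *Abcd3* also missed in edgeR's exact test (adjusted *P* = 0.0798). *Acot13*, a mitochondrial thioesterase, was the 1 that rose, from 57.7 to 67.1 CPM in flox/flox mice to 88.9 to 96.2 CPM in conditional KO mice (0.54, standard error 0.0765, adjusted *P* = 0.0028).

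**Figure D5:**
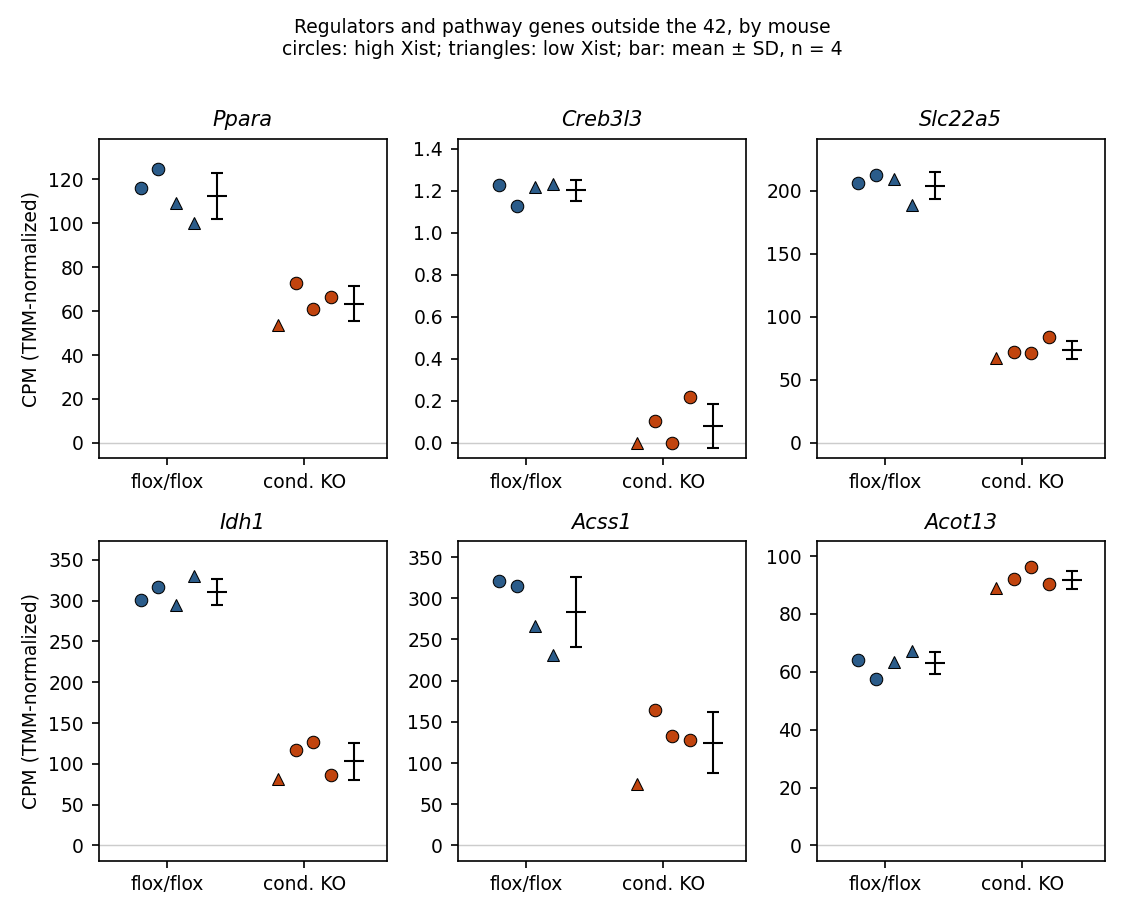
TMM-normalized CPM in each mouse of *Ppara*, *Creb3l3*, *Slc22a5*, *Idh1*, *Acss1* and *Acot13*, which are not among the 42 genes, drawn as in the plot of genes past the genotype threshold (circles high *Xist*, triangles low *Xist*, bar mean ± SD, n = 4). The conditional KO mice lie below all flox/flox mice in 5 panels and above them for *Acot13* (at least 88.9 against at most 67.1 CPM).

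Of 43 tested markers of S3 segments, thick ascending limb, distal convoluted tubule, collecting duct, podocytes and macrophages, 0 passed edgeR's quasi-likelihood test, 2 were lower and 3 higher at an unadjusted *P* under 0.05, and DESeq2 called 1 lower. Among 7 endothelial markers *Kdr* was lower, but passed in 0 of the 8 fits that each left out 1 mouse. The summed S3 markers were 4979 CPM in conditional KO mouse 1, 1426 to 1573 CPM in the other 3 and 1258 to 3870 CPM in flox/flox mice. The median log2 fold change of these 7 S3 markers was -0.36, with the *Xist* term 4 were lower and 1 was higher at an unadjusted *P* under 0.05, and their part in the differences of the 42 genes was not tested. Hepatocyte markers summed to 1404 CPM in conditional KO mouse 1, 141 to 149.9 CPM in the other 3 and 64.1 to 618 CPM in flox/flox mice, with 1 of the 10 genes at 0 in every mouse. Of the 5 that were tested 0 passed the quasi-likelihood test, while DESeq2 and edgeR's exact test each called 1 lower, *Alb*, the gene of serum albumin. Fat markers summed to 25.2 to 53.5 CPM in conditional KO and 27.2 to 233 CPM in flox/flox mice, and adrenal markers, 1 of 6 at 0, to 6.27 to 7.21 and 7.11 to 9.93 CPM.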

How the data were processed

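RNA-Seq counts of whole kidneys from 4 conditional KO and 4 flox/flox mice were analysed. The deposited counts are whole reads per gene name, not normalized, which the authors made with featureCounts (2.0.1 by the file header, Subread 2.0.2 by the submitters' processing notes) from exons of Ensembl release 102 of GRCm38. Each read of a pair was counted by itself, strand was ignored, and reads on exons of several genes or at several places were not counted. The aligner is not given in the sources used here. Totals of 16649129 to 22990257 counts per mouse set the precision. The labels name the tissue as whole kidney but describe RNA extraction from liver.

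Genes were filtered with filterByExpr, scaled by TMM and compared with edgeR's robust quasi-likelihood test (edgeR 4.0.16, R 4.3.3, limma 3.58.1), without covariates, over 20149 genes. Each standard error was obtained from the log2 fold change and the F value of its test. *P* values were adjusted by Benjamini-Hochberg over all genes tested and called under 0.05. Intervals are at 95%. Nothing in the labels says that mice of a genotype came from separate litters. The alternatives tried were other scalings (RLE, upper quartile, and quantile normalization fitted by limma-trend), DESeq2 1.42.0, edgeR's exact test, 2 other filters, the replicate number as a block, *Xist* class, mice with high *Xist*, libraries without mitochondrial and ribosomal RNA genes, other thresholds and each mouse left out. The interaction of genotype with *Xist* class was added after the data had been seen. The authors' own route, with CLC Genomics Workbench, was not repeated.

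All 42 genes are accounted for. Values per mouse are given for genes past the threshold and for the 2 genes of each role with the smallest *P*, of each pathway list up to 3 genes past the threshold in each direction, those with the smallest *P*, are named, with *Ppara*, *Ppargc1a*, *Hnf4a* and *Slc22a5*, and the 5 genes with the smallest *P* for *Xist* class. *Acaa1b* and *Acsl1* were described by mouse after their values had been seen, and *Hacl1* and *Pex10*, which missed the threshold, were named likewise. The 42 genes and all lists were chosen with earlier results of these data known. Shared 36-base stretches came from GENCODE transcripts of GRCm38, exon overlaps from the deposited coordinates, and promoters from RefSeq. The tests were checked on simulated counts. Plots were made in Python 3.11.15 (matplotlib 3.10.9).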

Additional observations from a re-analysis of the deposited data

Results flagged for a closer look

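In groups of 4 mice, a mouse was set aside for a closer look when its gap to the nearest other mouse, divided by the range of the group, was above Dixon's critical value for 4 values. Of 86 groups examined (*Maf* and the 42 genes in both genotypes), 6 passed, where chance gives about 1 in 20, or 4.3. Of these, 5 held the same mouse, conditional KO mouse 1, which also had low *Xist* and the highest mitochondrial share. In that mouse the level of *Acat1* was 685.0 CPM, and 225.8 to 258.8 CPM in its group mates, *Etfdh* at 139.1 against 120.0 to 121.3 CPM, and *Acox3* at 130.8 against 111.9 to 114.9 CPM. It was lower than them in *Hadha*, at 175.7 against 234.2 to 242.7 CPM, and in *Eci1*, at 35.5 against 48.7 to 51.1 CPM. *Crat* was at 170.7 CPM in flox/flox mouse 3 against 152.6 to 154.3 CPM in mice 1, 2 and 4.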

How the results depend on the processing

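The 5 lower genes became 3 with upper-quartile factors (without *Etfb* and *Ehhadh*), 3 with quantile normalization (without *Acaa2* and *Etfb*), 11 with *Xist* class as a covariate, 1 at an adjusted *P* under 0.01 and 1 to 4 with single mice left out. Over all genes 1.58% were lower, which became 1.32%, 1.33%, 4.49%, 0.715% and 0.913% to 1.51% in the same order. The 1 higher gene became 0 with *Xist* class as a covariate, 2 in mice with high *Xist*, 0 at an adjusted *P* under 0.01 and 0 to 1 with single mice left out. The replicate numbers did not pair the mice (correlations of deviations from -0.37 to 0.15), and with the number as a replicate block 1 gene was lower and 0 were higher (0.551% and 0.0893% of all genes, against 1.58% and 0.586% without the block), other pathway genes gave 3 lower and 0 higher, and *Maf* was at -4.28 (adjusted *P* = 0.0516). The 8 lower pathway genes became 5 with quantile normalization, 13 with DESeq2, 17 with *Xist* class, 4 at 0.01 and 4 to 8 with single mice left out, and the 1 higher became 2 with DESeq2, 2 with the exact test, 12 with *Xist* class, 12 in mice with high *Xist*, 2 at 0.10 and 1 to 2 with single mice left out. The median of the 42 genes (-0.16) was -0.10 with quantile normalization and -0.18 to -0.13 with single mice left out. *Maf* was at -3.87 in mice with high *Xist* (adjusted *P* = 0.108) and -4.41 to -3.80 with single mice left out. The 13 genes that differed by *Xist* class were 8 at an adjusted *P* under 0.01 (5.91% of all genes, against 12.2% at 0.05) and 8 to 12 with single mice left out, 8 without flox/flox mouse 2 or 4. The sign of *Cat* turned with upper-quartile factors (0.0293), quantile normalization (0.10), *Xist* class (0.00113), mice with high *Xist* (0.0593), and without conditional KO mouse 4 or flox/flox mouse 4 (-0.0566 to 0.0253 with single mice left out), that of *Acat1* with *Xist* class (0.0197), that of *Bdh1* without conditional KO mouse 3 or flox/flox mouse 1 (-0.0125 to 0.0668 with single mice left out), that of *Acaa1b* with *Xist* class (-0.17) and without conditional KO mouse 4 (-0.0823 to 0.377), that of *Acot2* with *Xist* class (-0.0414), mice with high *Xist* (-0.0189) and without conditional KO mouse 4 or flox/flox mouse 4 (-0.0424 to 0.172), that of *Acad10* in mice with high *Xist* (0.103), and that of *Acad12* without conditional KO mouse 2 or 3 or flox/flox mouse 1 or 4 (-0.0525 to 0.149), none of them past a threshold. Over 59 named genes and all alternatives, 977 values kept direction and side of the threshold, 103 lost it, 20 gained it and 20 changed sign. The causes were not tested.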
